A study of Rattus norvegicus with 18 samples.

Results

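The changes described here are those between 0 h and 2.5 h of 4-hydroxytamoxifen (4OHT) in rat hippocampal neurons carrying MEF2-VP16-ER. They were measured on 6 of the 18 Affymetrix arrays of the study: the 3 labelled MEF2-VP16-ER at 2.5 h and the 3 labelled MEF2-VP16-ER at 0 h, matched by biological replicate number. All 31042 probe sets other than the array's own controls were examined. The neurons of both groups had been dissociated and transduced with a lentivirus on day 3 in vitro. The ligand step was on day 10, with 0 h of exposure in the 0 h group. The 2 groups thus share the virus, the fusion protein and the age of the culture and differ by the length of ligand exposure. Another 6 arrays, used for comparison, came from neurons given the control virus, labelled MEF2deltaDBD-VP16-ER, at the same 2 times. The promoter that drives either construct, the age and number of the animals and whether replicates came from separate cultures were not given in the sources used here, so p values measure only the spread between these arrays.

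MEF2 proteins (encoded by Mef2a, Mef2b, Mef2c and Mef2d in mammals) bind an A/T-rich DNA element through a MADS domain. Without a stimulus they are held in check by class IIa histone deacetylases, and in neurons calcium entry through channels and receptors relieves that repression. They are known in hippocampal neurons for restricting the number of excitatory synapses, and in muscle for driving contractile genes. VP16 is a strong viral activation domain. The hormone-binding domain of the estrogen receptor keeps a fusion protein inactive until a ligand such as 4OHT binds, and the deletion in the control removes the part that contacts DNA, as its name says.

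The cultures had the marker signals of neurons and of astrocytes, and lower sums of fibroblast and oligodendrocyte lineage markers. The summed intensity of 12 neuronal markers, among them Map2 and Stmn2, lay between 83208 and 89908 at 0 h and between 84325 and 87744 at 2.5 h. The sum of 11 astrocyte markers, led by Slc1a3 and Gfap, lay between 44548 and 60054 at 0 h and between 43330 and 55344 at 2.5 h. By contrast, 14 microglial markers summed to at most 2330.0 and 11 endothelial markers to at most 807 on these 6 arrays. None of these 4 sums separated the 2 times, and no gene of these 4 lists was called by limma (1, 1, 1 and 0 had an unadjusted p under 0.05). Over all named genes 3.01% were called, so 0 in lists of this size is near the background. The 12 fibroblast and meningeal markers, led by Igfbp2 and Vim, summed to between 13890 and 18268 at 0 h. At 2.5 h they summed to between 14063 and 18395. Mean 0 h intensity was 6575 ± 491 (SD, n = 3) for Igfbp2 and 5592 ± 1456 for Vim. It was 554 ± 164 for Dcn, 129 ± 10.3 for Col1a1 and 43.3 ± 8.4 for Lum. The 11 oligodendrocyte lineage markers, led by Olig1 and Pdgfra, summed to between 10132 and 14058 at 0 h. Their 2.5 h sums lay between 8360 and 15451, and Olig2 is described below. Mean 0 h intensity was 5700 ± 207 (SD, n = 3) for Olig1 and 3047 ± 1498 for Pdgfra. It was 1835 ± 299 for Cnp, 70.1 ± 12.8 for Mog and 48.7 ± 1.8 for Mobp. Such sums follow their brightest genes and do not rank the cell types. Array medians lay between 192.4 and 196.1 (intensity), close enough that the values were used as deposited. Each change below is the 2.5 h value minus the 0 h value of log2(intensity + 16), with the SE of the fit (3 arrays a group). The added 16 makes changes of dim genes look smaller than they are.

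A gene is said to have risen or fallen only where limma gave it a Benjamini-Hochberg adjusted p below 0.05 among the 31042 probe sets, with the replicate number as a block. By that rule 724 probe sets changed (2.33%), 414 higher (1.33%) and 310 lower (0.999%), against 3332 with an unadjusted p under 0.05. They named 257 genes that rose and 214 that fell, and no gene had probe sets called both ways. All 724 had the same sign in the 3 replicate pairs, a trait that the call itself favours and that was not counted among all probe sets. In 623 the 2.5 h and 0 h arrays did not overlap, which held for 11.3% of all probe sets. Without the replicate block 245 were called (157 higher, 88 lower), and with 2.5 h replicate 3 left out 453 (266 higher, 187 lower). The fitted changes had a median of -0.0034 over all probe sets.

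Large changes were more frequent among the rises. At least 2-fold changes numbered 45 among the rises and 13 among the falls. The median called change was 0.49 for the rises and -0.42 for the falls, with the extremes at 2.68 and -1.62. The median 0 h intensity was 393 for probe sets that rose and 709.9 for those that fell, against 197 for all, a reading that depends on the probe as well as on the RNA. Of the 45 rises of at least 2-fold, 21 started below the median level of all probe sets, as did 1 of the 13 falls.

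**Figure D1:**
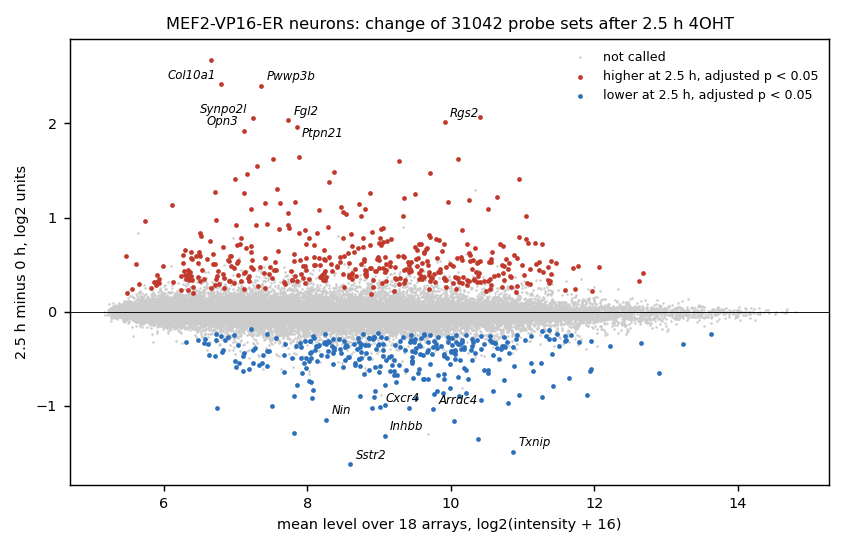
Change from 0 h to 2.5 h in MEF2-VP16-ER neurons (log2 units, vertical) against the mean level over 18 arrays, log2(intensity + 16), 1 point per probe set, with the 414 called higher in red, the 310 called lower in blue and the other probe sets in grey. The red points reach 2.68 and lie mostly above dim to middling levels, and the lowest blue point is Sstr2 at -1.62.

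The steepest rises included secreted and matrix genes. Col10a1, a collagen of growing cartilage, read 62.7, 64.4 and 63.0 on the 0 h arrays and 539, 264 and 473 on the 2.5 h arrays. Every 2.5 h array was far above every 0 h array, a rise of 2.41 ± 0.16 (5.33-fold, adjusted p = 5.3e-07). Fgl2, which encodes a fibrinogen-like protein secreted by immune cells, went from 224, 108 and 103 to 868, 573 and 447. Replicate 1 was the highest at both times, and the rise was 2.03 ± 0.12 (adjusted p = 2.1e-07). All 4 of its probe sets rose, by 0.55 to 2.68, the last being the largest called change on the array. Adamts1, a protease that cleaves large proteoglycans, read 95.7, 108 and 65.0 at 0 h and 437, 371 and 117 at 2.5 h. Replicate 3 rose least, and the call (1.46 ± 0.23, adjusted p = 0.0015) was lost without replicate 1 (adjusted p = 0.071) or replicate 2 (adjusted p = 0.069). Hs3st1, which adds the rare 3-O-sulfate to heparan sulfate, had 0 h readings of 504, 502 and 502 and 2.5 h readings of 1576, 1449 and 1642. The 3 arrays of each group lay close together, and the rise was 1.60 ± 0.10 (adjusted p = 2.1e-07).

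Among 55 extracellular matrix genes 7 rose and 0 fell (12.7%, where 3.01% of all named genes changed, 1.65% up and 1.36% down, taking each gene by its highest probe set). Without the replicate block 1 of these 7 was called. Timp3, an inhibitor of matrix proteases, rose by 0.60 ± 0.07. The membrane-bound protease gene Mmp16 rose by 0.43 ± 0.07, and the call was lost without replicate 3 (adjusted p = 0.063). The laminin chain gene Lamc1 rose by 0.35 ± 0.06, a call lost without replicate 1 (adjusted p = 0.068) or replicate 2 (adjusted p = 0.091). Of 36 heparan sulfate and proteoglycan genes 2 rose, Hs3st1 and the chain polymerase gene Ext1 (0.45 ± 0.07; adjusted p = 0.052 without replicate 2). The lists' median changes were 0.07 and -0.02, beside -0.0063 over all named genes. The list shares given below stand beside the same 3.01% of all named genes. All lists were written with earlier results of these data known, which can raise such shares, and none was tested as a set. Counts of list members use each gene's brightest probe set. On a dimmer one Klf2 (0.89), Adcyap1 (0.36), Rgs17 (0.33) and Kcnj3 (0.33) rose and Srebf1 (-0.43) fell, and they are not in the counts of the activity, G-protein, potassium channel and cholesterol lists. Conversely, dimmer probe sets of Timp3, Lamc1, Ext1, Sema6a, Ppargc1a, Nr4a3, Sik1, Olig2, St3gal1 and Sesn1 were not called. Epha3 had a dimmer probe set that rose (0.40, adjusted p = 0.002) and another that was not called (-0.17).

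Rgs2, a GTPase-activating protein that turns off Gq signalling, read 769, 663 and 572 at 0 h and 2504, 2393 and 3386 at 2.5 h, a rise of 2.01 ± 0.17 (adjusted p = 3.8e-06). Its other probe set rose by 2.06 ± 0.17. Rgs3 went from 708, 585 and 631 to 1519, 1596 and 2420.0 (1.47 ± 0.15, adjusted p = 2.6e-05). The 3 probe sets of Rgs3 disagreed: only the brightest was called, and the others changed by -0.09 and 0.04. Rgs16, another member of the family, went from 527, 287 and 280.0 to 973, 785 and 822 (1.26 ± 0.16, adjusted p = 0.00022). For all 3 genes the 2.5 h arrays lay above the 0 h arrays. Of 16 genes for regulators of G-protein signalling, these 3 rose and 0 fell (18.8%), and Rgs4 (0.15 ± 0.06, adjusted p = 0.31) and Rgs19 (-0.26 ± 0.08, adjusted p = 0.18) were not called.

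Inhibitors of growth-factor signalling moved in both directions. Bambi, a receptor-like membrane protein that cannot signal and dampens TGF-beta family receptors, went from 148, 176 and 147 to 563, 473 and 537, 3.13-fold (1.64 ± 0.10, adjusted p = 2.3e-07). The activin genes split. Inhba, whose product forms activin A, went from 128, 177 and 121 to 300.4, 305 and 397 (1.16 ± 0.14, adjusted p = 0.00016). Inhbb, whose product forms activin B, went from 474, 831 and 770.1 to 174, 312 and 322 (-1.32 ± 0.09, adjusted p = 7.7e-07). In neither gene did the groups overlap, although a dimmer second probe set of Inhba changed by only 0.03. In the whole list of 41 activin, BMP and TGF-beta genes 5 rose and 3 fell (19.5%; 5 called without the replicate block), with a median of -0.01. Id3 (-1.30 ± 0.34, adjusted p = 0.06) and Id1 (-0.62 ± 0.21, adjusted p = 0.19), targets of BMP signalling, had large negative values that did not pass.

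Of 17 feedback inhibitors of Ras-MAPK signalling 2 rose and 5 fell (41.2%; 2 called without the replicate block and 1 without replicate number 2), with a median change of -0.15. Spry1, a Sprouty inhibitor of receptor tyrosine kinase signalling, went from 314, 368 and 315 to 617, 756 and 905 (1.14 ± 0.15, adjusted p = 0.00027), and its 2 groups did not overlap. The phosphatase gene Dusp14 rose less (0.46 ± 0.07; adjusted p = 0.081 without replicate 2 and 0.055 without replicate 3). Spry3 fell from 131, 158 and 125 to 91.7, 104 and 95.4 (-0.44 ± 0.08; adjusted p = 0.19 without replicate 2). Dusp5, which encodes a phosphatase of nuclear ERK, fell from 266, 293 and 189 to 172, 189 and 152 (-0.49 ± 0.08; adjusted p = 0.096 without replicate 1 and 0.15 without replicate 2). Spry2 (-0.25 ± 0.07, adjusted p = 0.11) and Dusp1 (-0.26 ± 0.11, adjusted p = 0.36) were not called.

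Transcription factors that neuronal activity is known to induce did not move as one group. Of 37 measured, 8 rose and 7 fell (40.5%; 6 called without the replicate block), and the median change was 0.04. The orphan nuclear receptor gene Nr4a1 went from 768, 746 and 789 at 0 h to 1997, 1609 and 1641 at 2.5 h, 2.24-fold (1.17 ± 0.11, adjusted p = 9.4e-06). Both of its relatives also rose. Nr4a3 went from 7039.8, 7169 and 6107 to 9172, 8982 and 8724 (0.41 ± 0.05, adjusted p = 0.00019). Nr4a2 went from 1774, 1255 and 964 to 2573, 1746 and 1479 (0.54 ± 0.09, adjusted p = 0.0031), with overlapping groups because replicate 1 was high at both times. The Nr4a2 call was lost without replicate 1 (adjusted p = 0.065) or replicate 3 (adjusted p = 0.056).

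Cited2, whose product binds the coactivators CBP and p300, went from 977, 735 and 683 to 2826, 2155 and 2429 (1.62 ± 0.10, adjusted p = 2.1e-07), and its brighter probe set rose by 1.41 ± 0.09. Nfil3, a bZIP repressor, went from 1061, 1084 and 867 to 2414, 2139.9 and 2349 (1.19 ± 0.14, adjusted p = 9e-05). In both genes the groups were well apart. Egr1, an immediate early zinc-finger gene, moved the other way, from 3456, 2139 and 1474 to 1688, 1401 and 595 (-0.97 ± 0.12, adjusted p = 0.00021). All 3 pairs fell, but the groups overlapped because replicates 1, 2 and 3 differed widely at both times.

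Some calls in this list were lost when single arrays were left out. Atf3, a stress-responsive bZIP gene, read 921, 358 and 468 at 0 h and 1745, 1210.5 and 952 at 2.5 h (1.21 ± 0.26, adjusted p = 0.018). That call was lost without 0 h replicate 1 (adjusted p = 0.09), 0 h replicate 2 (0.12), 2.5 h replicate 2 (0.075) or 2.5 h replicate 3 (0.13). Fosb, an immediate early gene of the AP-1 family, read 100.1, 95.4 and 70.4 and 315, 165 and 112 (0.93 ± 0.23, adjusted p = 0.045), and its call was lost with any 1 of the 6 arrays left out (adjusted p from 0.064 to 0.24). Fos itself read 1628, 834 and 539 at 0 h and 2571, 2276 and 1920.4 at 2.5 h, an increase of 1.30 ± 0.34 that did not pass (adjusted p = 0.067).

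Among 30 activity-regulated effector genes 6 rose and 2 fell (26.7%; median -0.04; 5 called without the replicate block). Bdnf, the neurotrophin gene, went from 879, 721 and 442 to 1844, 1636 and 1297, 2.37-fold (1.25 ± 0.12, adjusted p = 1.6e-05), and a second probe set rose by 0.39. Replicate 3 was the lowest Bdnf reading at both times, and the groups did not overlap. Gadd45b, which takes part in stress responses and DNA demethylation, went from 177, 162 and 143 to 309, 301 and 347 (0.92 ± 0.12, adjusted p = 0.00026). The kinase gene Sgk1 went from 987, 1127 and 1113 to 1736, 1739 and 1846 (0.72 ± 0.07, adjusted p = 3e-05). Sik1, whose kinase phosphorylates class IIa deacetylases, fell by a smaller amount (-0.44 ± 0.07; adjusted p = 0.076 without replicate 2). Arc, a dendritic regulator of AMPA receptors known as a MEF2 target, read 205, 224 and 157 at 0 h and 183, 157 and 169.7 at 2.5 h and was not called (-0.17 ± 0.10, adjusted p = 0.61). None of the 5 probe sets of Homer1, the postsynaptic scaffold gene, was called. Their changes ran from -0.12 to 0.43.

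**Figure D2:**
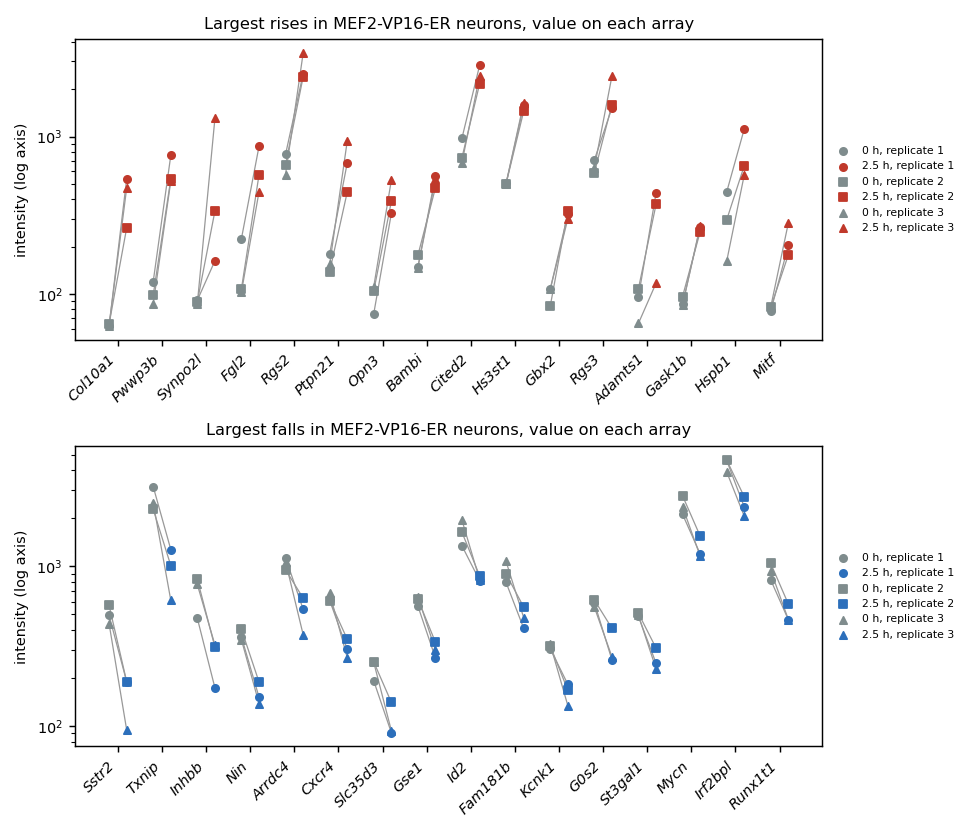
Intensity (log axis) of the 16 largest rises and the 16 largest falls among named genes on each of the 6 arrays, grey at 0 h and coloured at 2.5 h, with a line joining arrays of the same replicate number. Every line runs upward in the upper panel and downward in the lower one, which the choice of these genes required. Synpo2l shows the widest spread at 2.5 h.

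Several of the largest rises belong to other families. Pwwp3b, a gene of the PWWP-domain family, went from 119.6, 98.3 and 86.3 to 761, 538 and 523 (2.40 ± 0.11, 5.27-fold, adjusted p = 1.2e-08). The tyrosine phosphatase gene Ptpn21 went from 179.7, 139 and 154 to 681, 445 and 939 (1.97 ± 0.17, adjusted p = 6.3e-06). Opn3, which encodes a non-visual opsin, went from 74.9, 104 and 111 to 326, 388 and 529.9 (1.92 ± 0.17, adjusted p = 8.3e-06). In these 3 genes the lowest 2.5 h array was above the highest 0 h array, which the choice of the largest rises required. The other rises among the 25 largest were Gask1b (1.40 ± 0.09), the small heat shock gene Hspb1 (1.38 ± 0.14), the bHLH factor gene Mitf (1.27 ± 0.10), the zinc-finger gene Zfp46 (1.22 ± 0.10), Fam43a (1.16 ± 0.14) and the homeobox gene Gbx2 (1.55 ± 0.12). A dimmer probe set of Gbx2 changed by 0.21 and was not called.

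Of 55 measured muscle genes known as MEF2 targets, 3 rose and 0 fell (5.45%, beside 3.01% of all named genes called), and 43 had a positive value with a median of 0.04. Ppargc1a, a coactivator that drives mitochondrial genes, went from 456, 470.3 and 544 to 739, 619 and 889.7 (0.58 ± 0.07, adjusted p = 0.00011). Myl1, for a myosin light chain, and Xirp1, for an actin-binding repeat protein, were dim. Myl1 went from 42.4, 39.5 and 43.0 to 52.6, 69.1 and 57.3 (0.39 ± 0.06; adjusted p = 0.094 without replicate 2 and 0.08 without replicate 3). Xirp1 went from 68.4, 58.6 and 56.9 to 111, 71.5 and 75.4 (0.38 ± 0.09, adjusted p = 0.04), and its call was kept only when 2.5 h replicate 2 was the array left out, with adjusted p from 0.054 to 0.17 without each of the other 5.

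Outside that list, 2 genes of related actin-binding proteins of striated muscle were among the largest rises. Synpo2l read 91.1, 89.1 and 86.6 at 0 h and 163, 337 and 1306 at 2.5 h. Replicate 3 read highest and replicate 1 lowest at 2.5 h, and the estimate of 2.06 ± 0.40 (adjusted p = 0.0097) was no longer called without 0 h replicate 3 (adjusted p = 0.076) or without replicate number 2 (adjusted p = 0.19). Synpo2 read 99.1, 106 and 98.0 and 201, 219 and 415 (1.26 ± 0.17, adjusted p = 0.00053), and again replicate 3 was highest at 2.5 h. The other 3 probe sets of Synpo2 changed by 0.03 to 0.17 and were not called.

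Of the genes of MEF2 and of its class IIa deacetylase partners, 7 were measured. Taken by their highest probe set, Hdac5 rose and the other 6 were not called. Hdac5, a class IIa deacetylase that binds MEF2, went from 1300.1, 1349 and 1276 to 1859.6, 1728 and 2210.2 (0.55 ± 0.10, adjusted p = 0.0073). The groups did not overlap, but the call was lost without 0 h replicate 1 (adjusted p = 0.05), 2.5 h replicate 3 (0.053), or replicate number 1 (0.076) or 3 (0.15), and a dimmer probe set changed by 0.01. Mef2a rose on 2 of 4 probe sets. The one with the smallest p went from 2074, 1687 and 1503 to 2613, 2229 and 2358 (0.46 ± 0.07, adjusted p = 0.0014; 0.13 without replicate 3), and the brightest changed by 0.39 ± 0.10 (adjusted p = 0.052). Mef2b (-0.01 ± 0.11), Mef2c (0.06 ± 0.06) and Mef2d (0.18 ± 0.08) were not called. Whether any probe reads the introduced construct was not examined.

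Promoters were searched for the MEF2 consensus because that is the element the native factor binds. RefSeq promoters (GRCr8, 250 bases before to 50 after the start) were found by Entrez gene identifier for 214 of the 257 genes that rose, 163 of the 214 that fell and 11700 of the 14217 named genes tested. On either strand the MEF2 consensus was in 10 promoters of risen genes (4.67%), 2 of fallen genes (1.23%) and 200 of all named genes (1.71%). In the whole promoter table, which holds further genes, it was in 924 of 27457 (3.37%). Of the 31 promoters of genes that rose at least 2-fold, 1 held it, that of Synpo2l. The cyclic AMP element TGACGTCA was in 4.67%, 3.07% and 2.85% of the risen, fallen and all named genes. Its core TGACG, which lies within the full element, was in 29.0%, 28.2% and 29.2%. The CArG box, the element of serum response factor, was in 1.40%, 3.07% and 1.35%. GC content was 60.9%, 64.7% and 59.7%.

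The 4 named genes that rose and held the MEF2 consensus are shown with the matched site in capitals and the sequence read 5′ to 3′ on the gene's strand. The windows are chr10:87688057-87688146 (minus strand) for Hdac5, chr1:130392153-130392242 (minus strand) for Mef2a, chr15:3684760-3684817 (plus strand) for Synpo2l and chr8:128635044-128635133 (minus strand) for Xirp1. They allow the sites to be compared letter by letter.
Hdac5: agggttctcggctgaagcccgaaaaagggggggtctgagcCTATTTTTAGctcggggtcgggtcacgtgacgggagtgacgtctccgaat
Mef2a: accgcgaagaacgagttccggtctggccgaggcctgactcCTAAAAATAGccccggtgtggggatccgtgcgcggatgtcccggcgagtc
Synpo2l: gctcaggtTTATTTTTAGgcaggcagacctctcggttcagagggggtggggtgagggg
Xirp1: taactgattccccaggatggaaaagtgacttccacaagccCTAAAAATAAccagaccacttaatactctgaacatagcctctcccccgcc
The first base of the site lay 52 bases before the start of Hdac5, 40 before that of Mef2a, 242 before that of Synpo2l and 82 before that of Xirp1. These are matches of letters in a fixed window, and binding was not measured.

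Among named genes the falls of Sstr2 and Txnip were the largest. Sstr2, a somatostatin receptor that signals through Gi, read 493, 570.0 and 438 at 0 h and 189.6, 189 and 94.4 at 2.5 h. All 2.5 h arrays were far below all 0 h arrays, a fall of -1.62 ± 0.10 (3.08-fold lower, adjusted p = 2.3e-07), and its second probe set fell too. Txnip, an arrestin-like protein that binds thioredoxin and limits glucose uptake, went from 3153, 2273 and 2496 to 1272, 1009 and 612 (-1.49 ± 0.16, 2.8-fold lower, adjusted p = 4e-05). Its relative Arrdc4, which also limits glucose uptake, went from 1132, 952 and 1071 to 538, 632 and 373 (-1.04 ± 0.12, adjusted p = 9.1e-05). Replicate 3 was the lowest of both genes at 2.5 h. Pfkfb3, whose enzyme makes an activator of glycolysis, went from 1232, 1096 and 1283 to 710.2, 734 and 592 (-0.81 ± 0.08, adjusted p = 1.1e-05), although its other 2 probe sets were not called. Ddit4, an inhibitor of mTORC1 induced by stress, went from 2722, 3171 and 3810.0 to 1727, 1891 and 1914 (-0.79 ± 0.14, adjusted p = 0.0036; 0.065 without replicate 2). G0s2, an inhibitor of the main triglyceride lipase, fell as well (-0.90 ± 0.12).

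Both receptors of the chemokine CXCL12 fell. Cxcr4, which guides migrating neurons, went from 613, 611 and 679 to 302, 349.5 and 268 (-1.02 ± 0.10, adjusted p = 2.3e-05), and all 3 of its probe sets fell. Ackr3, which scavenges the ligand, went from 559, 661 and 632 to 357, 325 and 379 (-0.78 ± 0.08, adjusted p = 2.6e-05). In neither did the groups overlap. The Nogo receptor gene Rtn4r, which mediates myelin inhibition of axon growth, went from 1225, 1637 and 1381 to 569, 1003 and 791 (-0.86 ± 0.12, adjusted p = 0.0005), and its 3 probe sets fell together. The neurotrophin gene Ntf3 went from 535, 535 and 479 to 294, 358 and 209.6 (-0.84 ± 0.09, adjusted p = 6e-05), opposite to Bdnf. In the Wnt pathway the receptor gene Fzd1 (-0.72 ± 0.07) and Dact1 (-0.71 ± 0.08), which encodes a Dishevelled-binding protein, fell.

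Other genes among the 25 largest falls differ in their known roles. Gse1 read 565, 625 and 645 at 0 h and 266, 334 and 299 at 2.5 h (-0.99 ± 0.07, adjusted p = 7.7e-07), and 2 of its 3 probe sets fell. Irf2bpl went from 4609, 4625 and 3902 to 2347, 2718 and 2058 (-0.88 ± 0.05, adjusted p = 2.3e-07), but its 2 dimmer probe sets were not called (-0.29 and -0.03). Its relative Irf2bp2 fell on both probe sets (-0.71 ± 0.09 and -0.62 ± 0.08). Runx1t1, a corepressor gene, went from 821, 1041 and 938 to 463, 579.6 and 464 (-0.88 ± 0.07, adjusted p = 4.4e-06), and all 4 of its probe sets fell, with changes from -1.03 to -0.72. Mycn, a growth-promoting bHLH gene, went from 2116, 2762 and 2355 to 1196, 1546 and 1157 (-0.89 ± 0.07, adjusted p = 1.5e-06). In these genes the 2 groups were apart. Nin, which encodes a centrosomal protein that anchors microtubules, went from 362, 404 and 348 to 152, 189 and 139 (-1.15 ± 0.07, adjusted p = 3.9e-07). Fam181b (-0.91 ± 0.10), Klhl25 (-0.86 ± 0.08), the sialyltransferase gene St3gal1 (-0.89 ± 0.08) and the transporter-like gene Slc35d3 (-1.01 ± 0.16; adjusted p = 0.056 without replicate 3) complete the largest falls with Id2 and Kcnk1, described with the control neurons and the channels.

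Neurogenic and neuronal identity factors fell more often than they rose: 9 of 35 fell and 3 rose (34.3%, where 1.36% of named genes fell and 1.65% rose), and the median was -0.07. Without the replicate block 4 of the list were called. The list was written with earlier results of these data known, so its share is a description. The rises were Gbx2, Mitf and Satb1. Neurod6, a bHLH factor of excitatory forebrain neurons, went from 7901, 9674 and 8717 to 5577, 6058 and 5032 (-0.66 ± 0.08, adjusted p = 0.00017). Neurod2, from the same family, went from 717, 856 and 875 to 481, 527 and 525 (-0.65 ± 0.07, adjusted p = 2.6e-05). Fezf2, which specifies subcortical projection neurons, went from 1923, 1947 and 1566 to 1228, 1193 and 863 (-0.73 ± 0.06, adjusted p = 4.4e-06). The POU factor gene Pou3f1 went from 704, 1152 and 1008 to 352, 794 and 643 (-0.71 ± 0.10, adjusted p = 0.00075), with overlapping groups but every pair lower. Neurod1 (-0.32 ± 0.10, adjusted p = 0.12) was not called.

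Neurod2 and Neurod6 are also among 9 excitatory neuron markers, whose sum lay between 14857 and 17118 at 0 h and between 10184 and 13249 at 2.5 h, without overlap. Neurod6 makes up most of that difference, with a mean intensity of 8764 ± 888 (SD, n = 3) at 0 h and 5556 ± 513 at 2.5 h, and the 7 markers other than the Neurod genes were not called. Of the vesicular glutamate transporter genes among them, Slc17a7 had a mean intensity of 1439.6 ± 253 (SD, n = 3) at 0 h and 1309 ± 159 at 2.5 h, and Slc17a6 had 1350.4 ± 180.4 and 1344 ± 235. In control neurons the sum of the 9 excitatory markers lay between 14342 and 17037 at 0 h. At 2.5 h it lay between 12855 and 16272 there, lower in each replicate pair. The median change of these markers was -0.15 with MEF2-VP16-ER and -0.10 in control neurons. In such bulk RNA fewer cells of a type and less RNA per cell cannot be told apart. No gene of 9 inhibitory markers was called (1 at an unadjusted p under 0.05), and their sum overlapped between the times (5933 to 7401 and 5410.4 to 7122). With 3.01% of all named genes called, 0 of 9 is near the background. Of 11 oligodendrocyte lineage markers Olig2 fell, a call lost with any 1 of 5 arrays left out (all but 2.5 h replicate 1; adjusted p from 0.061 to 0.15).

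Channel genes changed singly. Of 45 potassium channel genes 3 rose and 2 fell (11.1%; median -0.04; 2 called without the replicate block). Kcna4, which encodes the A-type channel Kv1.4, went from 623, 646 and 517 to 1306, 1254 and 1094 (1.02 ± 0.09, adjusted p = 4.4e-06). Kcnk1, a two-pore leak channel gene, went from 305, 318 and 326 to 183, 168 and 134 (-0.91 ± 0.10, adjusted p = 4.9e-05). Both kept the 2 groups apart. The other 3 calls of that list were smaller, from -0.31 to 0.40. Of 30 sodium and calcium channel genes 0 were called by limma (4 at an unadjusted p under 0.05), the most negative being Cacng4 (-0.59 ± 0.17, adjusted p = 0.11). With 3.01% of all named genes called, 0 of 30 is near the background.

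The cadherin genes that passed the test all rose. Of 23 cadherin and protocadherin genes 5 rose and 0 fell (21.7%; 2 called without the replicate block), and the median was 0.09. Cdh10, a type II cadherin gene, went from 2318, 2457 and 2262 to 3778, 3697 and 4114 (0.72 ± 0.07, adjusted p = 2.5e-05). Pcdh10, a protocadherin gene known in mouse as a MEF2 target in synapse elimination, went from 744, 787 and 847 to 1066, 1294 and 1840.0 (0.77 ± 0.12, adjusted p = 0.0018; 0.11 without replicate 3). The groups were apart in both, with replicate 3 the highest at 2.5 h. Fat1 rose by 0.57 ± 0.09 (adjusted p = 0.08 without replicate 3) and Pcdh17 by 0.48 ± 0.08 (adjusted p = 0.13 without replicate 2). Of 48 axon guidance genes 5 rose and 6 fell (22.9%; 6 called without the replicate block). Sema6a, a transmembrane semaphorin gene, went from 2265, 2032 and 2139 to 3393, 3312 and 3983 (0.72 ± 0.07, adjusted p = 2.1e-05), and the ephrin receptor gene Epha3 from 431, 406 and 375 to 639.7, 590.3 and 581 (0.56 ± 0.05, adjusted p = 1.8e-05). Rtn4r and Cxcr4, above, were the largest falls of that list.

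**Figure D3:**
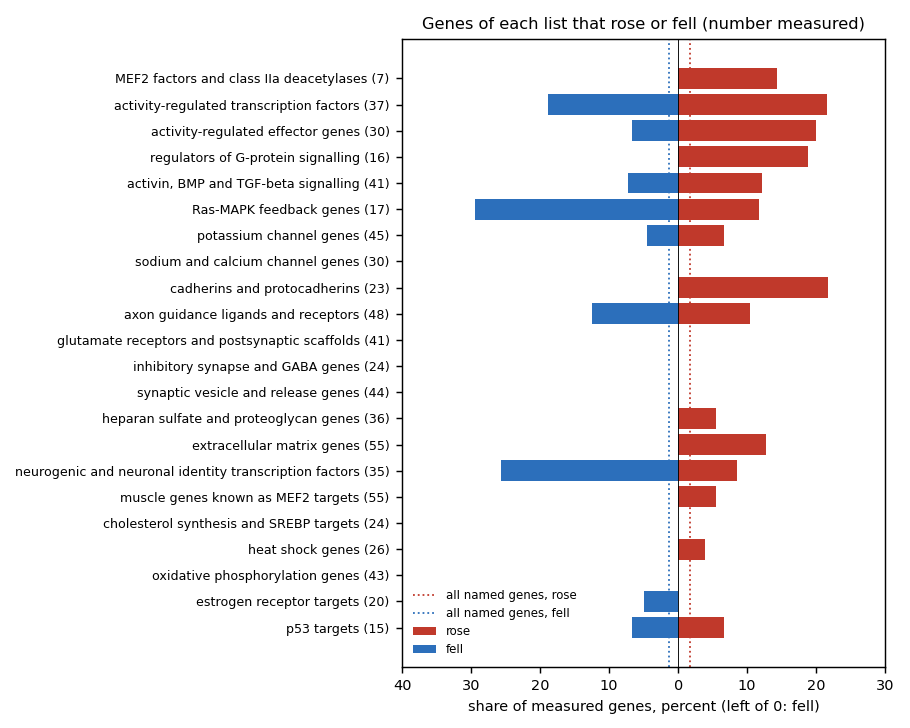
Share of the measured genes of each list that rose (red, right of 0) or fell (blue, left of 0), in percent, with dotted lines at the shares of all named genes (1.65% and 1.36%) and the number measured in brackets. Cadherin and matrix lists have red bars only, the neuronal identity and Ras-MAPK lists have longer blue bars, and the synaptic, sodium and calcium channel, cholesterol and oxidative phosphorylation lists have none.

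No synaptic list held a called gene. Of 41 glutamate receptor and scaffold genes, 24 genes of inhibitory synapses and 44 genes of vesicle release, 0 were called by limma, where 1, 1 and 4 had an unadjusted p under 0.05, and their median changes were 0.01, -0.04 and -0.02. With 3.01% of all named genes called, a count of 0 in lists of this size is near the background. For Grm7 (-0.35 ± 0.19, adjusted p = 0.6) and Syt1 (-0.29 ± 0.18, adjusted p = 0.67) the SE leaves room for a change. Of 43 oxidative phosphorylation genes 0 were called (0 at an unadjusted p under 0.05; median 0.02). Of 24 cholesterol synthesis genes 0 were called (3 at an unadjusted p under 0.05), and 2 had a positive value, with a median of -0.12 beside 0.19 in control neurons over the same time. Of 26 heat shock genes 1 was called, Hspb1, which rose from 443, 295 and 161 to 1118, 654 and 571, where the count was 3 with median centring, 4 with 1 probe set per gene and 0 without the replicate block. Hspb6 (0.78 ± 0.09) and Hspb3 (0.41 ± 0.09), small heat shock genes outside that list and chosen after their values were seen, also rose. Of 20 estrogen receptor targets 1 fell (5%, near the 3.01% of all named genes called), the cyclin gene Ccnd1 (-0.49 ± 0.11). Its 2 dimmer probe sets fell as well (-0.50, adjusted p = 0.002, and -0.48, adjusted p = 0.0094), and the call of the brightest was lost without replicates 2 or 3 at either time (adjusted p from 0.071 to 0.16). Of 15 p53 targets 1 rose, the stress-induced gene Sesn1 (0.43 ± 0.09, beside 0.35 in control neurons), and 1 fell, Ddit4, given above (13.3%; median -0.03). The Sesn1 call was lost with any 1 replicate number left out (adjusted p from 0.058 to 0.15).

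Far fewer probe sets were called in control neurons given 4OHT for 2.5 h. There limma called 1 of 31042 probe sets (0.00322%), Hs3st1, which read 490.0, 465 and 509 at 0 h and 323, 281 and 223 at 2.5 h (-0.80 ± 0.10, adjusted p = 0.013). Its direction was opposite to that with MEF2-VP16-ER. Adjustment was made within each comparison, so the counts of the 2 constructs do not share 1 unadjusted threshold. The control change of Id2 (-0.76 ± 0.12) was not called, though Atf3 (1.21 ± 0.26) was called with MEF2-VP16-ER. The difference of the 2 changes passed for 291 probe sets (0.937%), 175 higher (0.564%) and 116 lower (0.374%), and for 55 without the replicate block. The comparisons share the MEF2-VP16-ER arrays, so their values are given side by side.

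For Hs3st1 the difference was 2.40 ± 0.13 (adjusted p = 4.4e-07). For Col10a1 it was 2.39 ± 0.23 (adjusted p = 6.7e-05), for Pwwp3b 2.29 ± 0.16 (adjusted p = 2.3e-06) and for Rgs2 2.07 ± 0.24 (adjusted p = 0.00028), with control changes of 0.02, 0.11 and -0.06. Kcna4 and Bdnf had changes of -0.40 and -0.39 in control neurons, neither of which was called. Their differences were 1.42 ± 0.12 (adjusted p = 1.7e-05) and 1.63 ± 0.17 (adjusted p = 0.00013). Among the falls, the difference was -1.30 ± 0.14 for Sstr2 (adjusted p = 0.00022), -1.21 ± 0.13 for Inhbb (adjusted p = 0.00022), -1.19 ± 0.10 for Gse1 (adjusted p = 1.5e-05) and -1.07 ± 0.11 for Nin (adjusted p = 7.3e-05).

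At most 291 of the 724 probe sets that changed with MEF2-VP16-ER also passed for the difference, so most did not differ detectably from control. Id2, a HLH protein that blocks bHLH factors, fell from 1343, 1632 and 1943 to 815, 873 and 825 with MEF2-VP16-ER (-0.94 ± 0.12, adjusted p = 0.00023). In control neurons it read 1522, 1603 and 2285 at 0 h and 970.0, 1069 and 1083 at 2.5 h (-0.76 ± 0.12, not called), and the difference was -0.18 ± 0.17 (adjusted p = 0.9). St3gal1 had -0.89 ± 0.08 beside -0.41 ± 0.08 in control neurons (difference -0.48 ± 0.11, adjusted p = 0.065). Fzd1 changed by -0.27 in control neurons (difference -0.45, adjusted p = 0.059) and G0s2 by -0.25 (difference -0.66, adjusted p = 0.13). Gadd45b changed by 0.23 there (difference 0.69, adjusted p = 0.076). The 2 probe sets of Irf2bp2 disagreed: the dimmer had -0.71 ± 0.09 beside -0.30 ± 0.09 (difference -0.41 ± 0.12, adjusted p = 0.2), whereas for the brighter, at 0.00 in control neurons, the difference of -0.62 passed (adjusted p = 0.0099). For Synpo2l the difference was 2.20 ± 0.57 (adjusted p = 0.11) and for Atf3 0.94 ± 0.36 (adjusted p = 0.42). In Synpo2l the control arrays at 2.5 h read 95.5, 96.9 and 94.6, below all 3 MEF2-VP16-ER arrays.

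**Figure D4:**
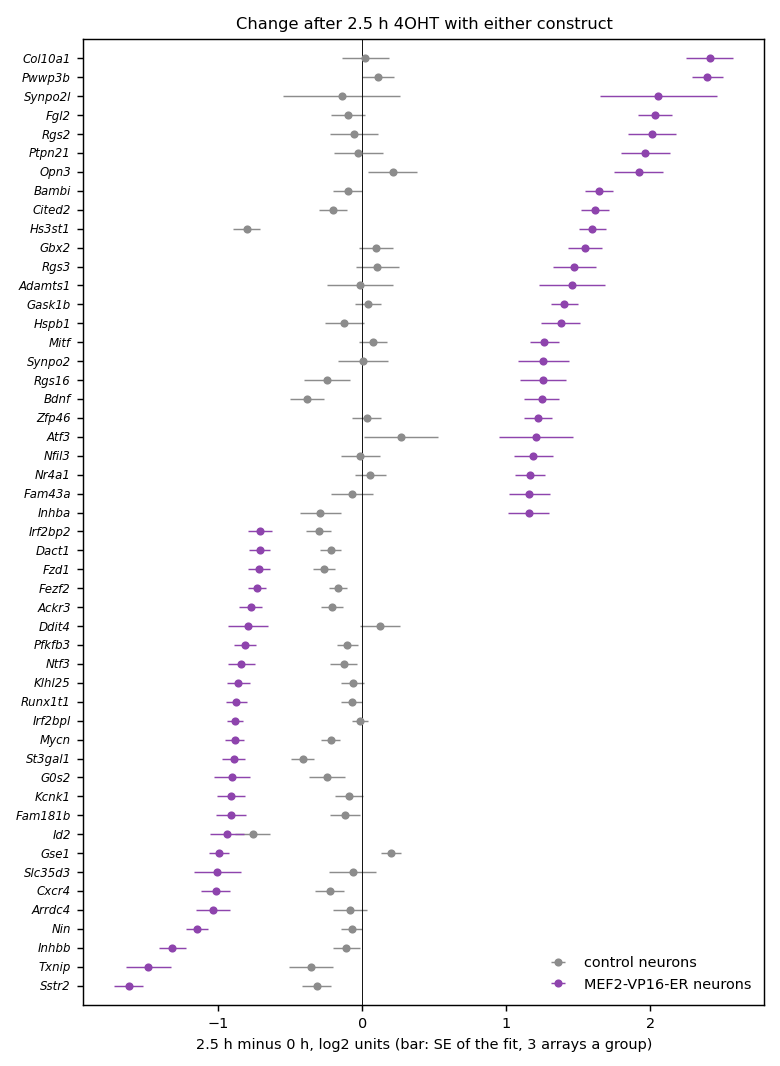
Change from 0 h to 2.5 h (log2 units, with the SE of the fit, 3 arrays a group) of the 25 largest rises and the 25 largest falls in MEF2-VP16-ER neurons (purple), with the same genes in control neurons (grey). Most grey points lie nearer 0 than the purple ones, and the lowest are Hs3st1 at -0.80 and Id2 at -0.76.

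Readings after 1 h of ligand, from 3 further MEF2-VP16-ER arrays, are given as a description because they share the 0 h arrays. Nfil3 read 2459.5, 1778 and 2324 at 1 h, already at its 2.5 h level. Txnip read 1322, 1129 and 571, a 1 h change of -1.45 beside -1.49 ± 0.16 at 2.5 h. Adamts1 read 319, 371 and 137. These 3 genes had moved most of the way by 1 h, as had Cited2 with 1.44, Spry1 with 1.05 and Nr4a1 with 1.01. Fosb read 571, 412 and 186, and in each replicate its 1 h value was above the 2.5 h value. Mitf read 88.1, 64.4 and 81.3 at 1 h, overlapping its 0 h readings, and Runx1t1 read 1009.5, 972 and 838. Cdh10, with a 1 h change of -0.07, Sema6a with 0.01 and Neurod6 with -0.21 likewise showed most of their change later. Rgs2, at 1493, 1557 and 2482, and Sstr2, at 369, 394 and 257, lay between the 2 times.

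**Figure D5:**
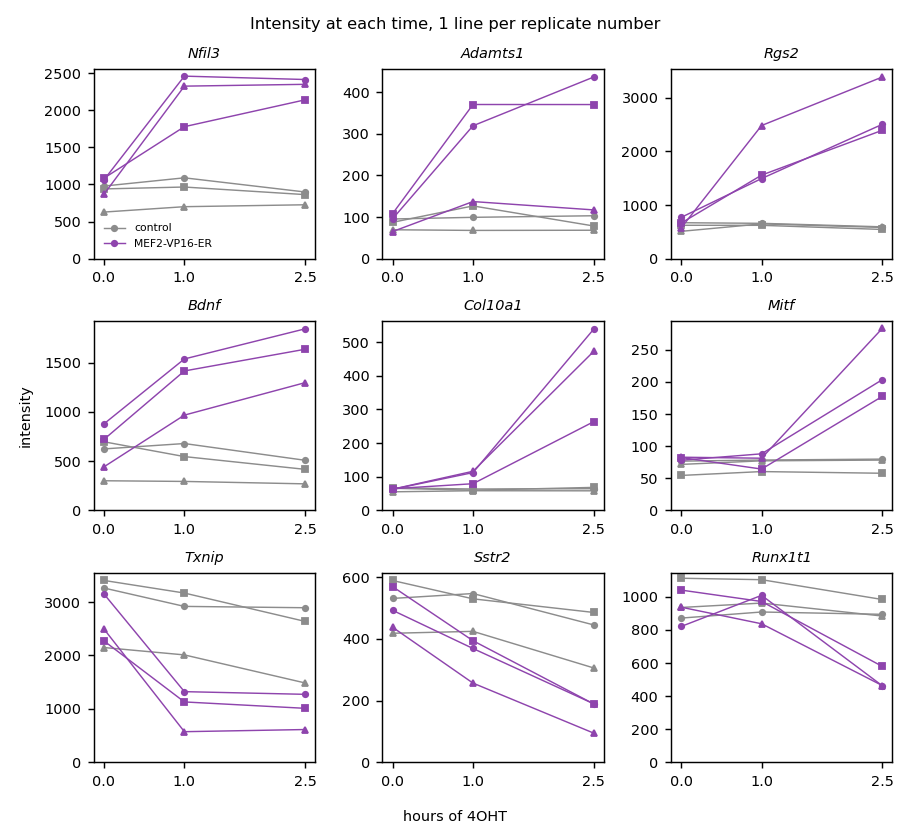
Intensity of 9 genes, chosen after their values were seen to show early and late courses, after 0, 1 and 2.5 h of 4OHT, with 1 line per replicate number in MEF2-VP16-ER neurons (purple) and control neurons (grey). Nfil3, Adamts1 and Txnip are near their 2.5 h level at 1 h, whereas Mitf, Col10a1 and Runx1t1 move mainly between 1 and 2.5 h.

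Probe sets without a gene symbol made up 122 of the rises and 66 of the falls. The largest of those named by probe set, 1378611_at, read 132, 139 and 159 at 0 h and 487, 442 and 494 at 2.5 h (1.62 ± 0.07, adjusted p = 1.1e-08), and 1384408_at rose by 1.48 ± 0.11. Probe set 1398732_at went from 1552, 1998 and 1525 to 509, 687 and 773 (-1.35 ± 0.11, adjusted p = 2.9e-06), and 1386035_at fell by a similar amount (-1.16 ± 0.08). Their genes were not identified here.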

How the data were processed

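The deposited table gives 1 intensity per probe set and array on a linear scale. Which normalization the authors applied to these intensities was not given in the sources used here. RNA was labelled by the standard Affymetrix procedure, per the labels' protocols. Affymetrix control probe sets (57 of 31099) were left out and no filter was set. Gene symbols came from the platform annotation: 20826 probe sets had 1 symbol, 436 several and 9780 none.

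A linear model in limma 3.58.1 (R 4.3.3) was fitted to log2(intensity + 16) on all 18 arrays, with a mean for each of 6 groups and the replicate number as a block (10 residual degrees of freedom). P values from eBayes were adjusted by Benjamini-Hochberg over 31042 probe sets. Over probe sets, deviations from the group mean correlated at 0.594, 0.420 and 0.494 between arrays of the same number and at most at 0.095 between other arrays, so the numbers pair the samples. The steps were tested on simulated data.

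Named genes are the 25 largest rises and 25 largest falls (each gene by its smallest p, all pairs of 1 sign, groups apart), up to 6 called and 2 uncalled members of each list, a fixed set of MEF2 and activity genes, and 2 unnamed probe sets each way. Just outside these ranks lay Dach1 (1.15, beside 1.16 for Inhba) and Klf10 (-0.69, beside -0.71 for Irf2bp2). The 30 gene lists (902 entries, 801 measured; the rest not analysed here) and the members were chosen with earlier results of these data known, and no list was tested as a set. Promoters were searched in Python 3.11.15.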

Additional observations from a re-analysis of the deposited data

Results flagged for a closer look

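The change from 0 h to 2.5 h differed between the MEF2-VP16-ER and the control construct, by a test of the difference itself, for 291 probe sets. The gene whose control change also passed was Hs3st1, where the changes of 1.60 and -0.80 were opposite and differed by 2.40 log2 units (adjusted p = 4.4e-07). All 3 replicate pairs moved up with MEF2-VP16-ER and all 3 moved down in control neurons. No group held enough arrays to test single arrays as outliers.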

How the results depend on the processing

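Of the 103 named probe sets called at 2.5 h, 56 kept their direction and call under every alternative run, and no named change reversed. The replicate block carried most weight: without it 245 probe sets were called in place of 724 and 55 in place of 291 for the difference from control, and 38 of the 103 lost their call, among them Bdnf, Txnip, Egr1 and Hspb1. Pairing by number rests on the labels' numbers and on the correlations. With all arrays of 1 replicate number left out, the count ranged from 316 to 426, and from 91 to 118 for the difference; with single arrays left out it ranged from 453 (without 2.5 h replicate 3) to 729, and from 198 to 286. Fewer arrays enter these fits. Quantile normalization gave 764, median centring 741, a pseudocount of 1 gave 717 and of 64 gave 703, trend and robust eBayes 743, the brighter probe sets alone (above the median) 610, the brightest probe set of each gene 500 and the 6 arrays alone 491 (12 arrays alone: 242 for the difference), all within 1.5 times. Without the block, called list members went from 7 to 1 for matrix genes and from 12 to 4 for neuronal identity factors. With 1 replicate number left out, the lowest counts were 1 of 7 for Ras-MAPK feedback genes (without replicate 2), 3 of 8 for activin, BMP and TGF-beta genes and 2 of 5 for potassium channels (without replicate 1), 3 of 7 for matrix genes (without replicate 1 or 2), 3 of 5 for cadherins (without replicate 2 or 3), 5 of 11 for axon guidance and 8 of 12 for neuronal identity factors (without replicate 3), and 9 of 15 for activity-regulated transcription factors (without replicate 2). Leaving out single arrays for each named gene was added after the data were seen. Dim probe sets limit what can be read at the bottom of the range.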
